A study of Mus musculus with 18 samples.

Results

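Ventricles of mouse embryos labelled knockout for Irx3 (Irx3KO, replicates 1, 2 and 4) were set directly against ventricles labelled knockout for Irx4 (Irx4KO, replicates 2, 3 and 4). These are 6 of the 18 polyA RNA-seq libraries of the series, chosen by the genotype in their titles, and the comparison covered all 16607 genes that passed a filter on low counts. All ventricles were of stage E14.5. The other libraries used here as points of comparison are 3 labelled knockout for both genes (DKO, replicates 2, 3 and 4) and 3 labelled heterozygous for both (Irx3+/-;Irx4+/-, double heterozygotes). The remaining 3 wild-type and 3 DKO libraries (replicates 5, 7 and 10) formed a separate set by their expression profiles, so wild type is not set against the single knockouts here. The 6 libraries of that set entered the fit only through the filter on low counts, the scaling between libraries and the estimate of the spread. The labels do not name the alleles or the parts of the genes that were removed, and nothing in them ties a library to its own embryo; the p-values therefore rest on the spread between libraries, part or all of which may be technical.

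Irx3 and Irx4 are members of the Iroquois family of homeobox transcription factors, which bind DNA through a homeodomain of the TALE class. In the mouse heart Irx4 marks the ventricular myocardium, while Irx3 is found in the trabeculae and the ventricular conduction system, where it is known to repress Gja1 (connexin 43) and to favour Gja5 (connexin 40). Setting one single knockout against the other asks which genes separate the loss of the 2 factors. A difference in this comparison can come from either knockout. The double heterozygotes carry altered alleles of both genes, and their levels are given beside those of the knockouts.

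Library size in the 6 libraries ran from 36802673 to 42877770 estimated counts. The tissue label was checked against ventricular muscle genes. Myl2, the ventricular myosin light chain, averaged 3918 ± 367 CPM (counts put on one library total by TMM factors) in Irx3KO and 4211 ± 78.6 CPM in Irx4KO (SD, n = 3 each), and Tnnt2, Myh7, Myl3 and Nkx2-5 were likewise expressed in all 6 libraries. None of these 5 genes passed the test between the groups. All 6 libraries expressed Y-linked genes, which summed to between 96.7 and 171.2 CPM in Irx3KO and between 145.5 and 157.7 CPM in Irx4KO. The groups used for comparison were mixed. The sum was 1.42 CPM in double heterozygote 2, against 151.8 and 158.3 CPM in 3 and 4. It was 1.1 CPM in DKO 4, against 134.3 and 134.5 CPM in DKO 2 and 3. In whole ventricle, fewer cells of a type and less RNA per cell cannot be told apart.

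The targeted genes were examined first. Irx3 stood at 2.80, 3.11 and 2.58 CPM in the Irx3KO libraries and at 22.2, 26.2 and 26.4 CPM in the Irx4KO libraries. The groups were far apart, with a log2 fold change of -3.14 ± 0.13 (SE; adjusted p = 3.0e-10 by edgeR's quasi-likelihood test with Benjamini-Hochberg adjustment, as for all adjusted p-values below). The DKO libraries averaged 3.65 ± 0.29 CPM and the double heterozygotes 13.1 ± 0.257 CPM (SD, n = 3 each), so the order of Irx3 levels was Irx3KO, DKO, double heterozygote and Irx4KO. Irx3 was also higher in Irx4KO than in the double heterozygotes, which carry 1 altered Irx3 allele per the labels (log2 fold change 0.93, adjusted p = 0.0098).

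Irx4 did not fall in the libraries labelled Irx4KO. It stood at 135, 142 and 158 CPM in the Irx3KO libraries and at 219, 216 and 239 CPM in the Irx4KO libraries. Every Irx4KO library lay above every Irx3KO library, and the log2 fold change was -0.64 ± 0.14 with an adjusted p of 0.063. DKO averaged 229 ± 8.04 CPM and the double heterozygotes 185 ± 8.05 CPM. In a fit of only the 6 libraries the same difference had an adjusted p of 0.0014. The amount of Irx4 RNA therefore does not check the Irx4KO label, since the removed part of the gene is not given in the sources used here, and Irx4KO below always means the libraries so labelled.

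**Figure D1:**
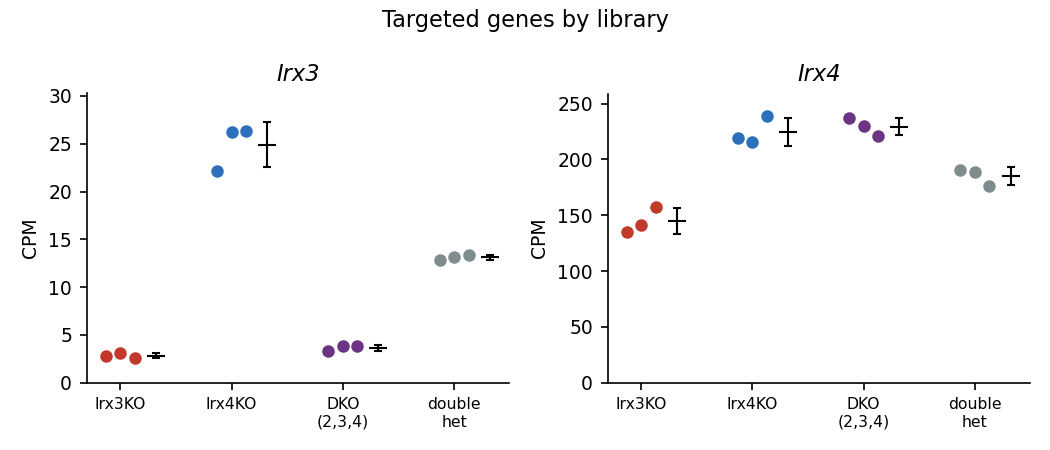
Irx3 and Irx4 levels in CPM (vertical axes, from 0) in each library of Irx3KO, Irx4KO, DKO (replicates 2, 3 and 4) and double heterozygotes. Dots are libraries and black marks the mean ± SD of 3 libraries. Irx3 is near 3 CPM in Irx3KO and above 22 CPM in Irx4KO, while Irx4 is above 200 CPM in all 3 Irx4KO libraries.

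In all, 48 of the 16607 genes (0.289%) passed an adjusted p of 0.05, with 24 higher in Irx3KO (0.145%) and 24 lower (0.145%), Irx3 among those that were lower. At an unadjusted p under 0.05 there were 1432 genes (8.62%), and the 3 Irx3KO and 3 Irx4KO libraries did not overlap for 3774 genes (22.7%). DESeq2 called 214 of the 16607 genes and limma-voom 738. Counts given below for gene lists and neighbours are to be read beside these values over all genes. A fit of the 6 libraries alone had a lower common dispersion (0.00929, against 0.0207 in the fit of all 18 libraries) and called 541 of 15865 genes (3.41%), with 248 higher (1.56%) and 293 lower (1.85%) in Irx3KO. Of the 48 genes, 47 were called there too. The 48 calls rest on few libraries. Of them, 9 held without each of the 6 libraries in turn, namely Irx3, Gja1, Kcnk3, Cacna1a, Atp2b3, Pirt, Grb14, Gng2 and Pla2g5. None of the 48 changed sign, but their groups did not overlap, so leaving out 1 library could hardly change a sign. For the same reason, a lack of overlap adds no support to a call below. Between 25 and 36 of the 48 were lost when 1 library was left out: 26, 29 and 27 without Irx3KO 1, 2 and 4, and 33, 36 and 25 without Irx4KO 2, 3 and 4.

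Gja1 encodes connexin 43, the main gap junction protein of working ventricular muscle, and it was higher in Irx3KO. Its level was 505, 520 and 583 CPM in the Irx3KO libraries, against 312, 329 and 326 CPM in the Irx4KO libraries. All 3 Irx3KO libraries lay above all 3 Irx4KO libraries, and the log2 fold change was 0.73 ± 0.09 (adjusted p = 0.00082). DKO averaged 325 ± 19.4 CPM and the double heterozygotes 496 ± 17.5 CPM. Set against the double heterozygotes, Gja1 was lower in Irx4KO (log2 fold change -0.62, adjusted p = 0.011) and lower in DKO (log2 fold change -0.61 ± 0.09, adjusted p = 0.0067), while Irx3KO differed from them by 0.11 on the log2 scale (adjusted p = 1). The comparisons of Irx3KO and Irx4KO with the double heterozygotes share the heterozygous libraries and are given side by side. In the gap junction and intercalated disc list, 1 of 18 tested genes was called higher and 0 lower, with a median log2 fold change of -0.01, against -0.0021 over all genes tested. At an unadjusted p under 0.05 there were 4 (8.62% over all genes). DESeq2 called 1 and limma-voom 3, and the fit of the 6 libraries called 1 higher and 1 lower. Gja5, the connexin 40 gene of atrium and conduction system, stood at 197 CPM in Irx3KO and 194 CPM in Irx4KO (adjusted p = 0.996).

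Among ion channels, 1 gene was higher and 1 lower out of 28 tested, with a median log2 fold change of -0.06. In this list 12 genes had an unadjusted p under 0.05 (8.62% over all genes), DESeq2 called 4 and limma-voom 8. Kcnk3 encodes TASK-1, a potassium channel that carries background current in heart muscle. It stood at 101, 102 and 89.2 CPM in Irx3KO and at 47.7, 50.8 and 51.1 CPM in Irx4KO, with no overlap, and its log2 fold change was 0.97 ± 0.12 (adjusted p = 0.0012). DKO averaged 51.2 ± 5.11 CPM and the double heterozygotes 78.4 ± 6.96 CPM, so DKO lay at the Irx4KO level.

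Scn10a, which encodes the sodium channel Nav1.8, moved the other way. It stood at 3.94, 3.55 and 3.21 CPM in Irx3KO and at 8.65, 7.68 and 7.33 CPM in Irx4KO. The Irx4KO libraries were all higher, and the log2 fold change was -1.14 ± 0.19 (adjusted p = 0.011). Without Irx3KO 2 or 4 or Irx4KO 2 or 3 the adjusted p ran from 0.054 to 0.081. Kcne1, the beta subunit of a delayed rectifier potassium channel, averaged 68.5 CPM in Irx3KO and 97.3 CPM in Irx4KO (adjusted p = 0.084). It is named after its values were seen, because the fit of the 6 libraries called it, with an adjusted p of 0.0014. That fit called 2 channel genes higher and 5 lower of 28.

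The channel gene Cacna1a, which encodes the pore of P/Q-type calcium channels, was not on the list and was also higher in Irx3KO. It stood at 14.1, 14.2 and 16.0 CPM in Irx3KO and at 9.18, 9.43 and 8.84 CPM in Irx4KO, with a log2 fold change of 0.69 ± 0.08 (adjusted p = 0.00082). The groups did not overlap. This call was lost when counts were rebuilt from TPM (adjusted p = 0.21).

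In the calcium handling list, 0 of 18 genes were higher and 1 was lower, with a median log2 fold change of -0.20. In this list 9 genes had an unadjusted p under 0.05 (8.62% over all genes) and 11 did not overlap between the groups (22.7% over all genes). DESeq2 called 1 and limma-voom 7, against 214 and 738 of all 16607 genes. The one called gene, Popdc2, encodes a Popeye-domain membrane protein of cardiac muscle that binds cyclic AMP. It stood at 278, 260 and 289 CPM in Irx3KO and at 354, 382 and 358 CPM in Irx4KO. The groups did not overlap, and the log2 fold change was -0.40 ± 0.08 with an adjusted p of 0.046, close to the threshold. This call was lost without each of the 6 libraries in turn (adjusted p from 0.10 to 0.22). In the fit of the 6 libraries 0 members were higher and 4 lower, Popdc2, Popdc3, Camk2d and Calr.

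Promoter sequences are shown for 2 genes that were higher and 2 that were lower in Irx3KO, so that the stretch upstream of their transcription starts can be read beside their levels. They are the 250 bases before the RefSeq start in GRCm38.p6, from 5′ to 3′ along the gene, with capitals marking the motif matches described after them. Gja1 is at chr10:56377050-56377299 (plus strand), Gpr37 at chr6:25689981-25690230 (minus strand), Scn10a at chr9:119719033-119719282 (minus strand) and Popdc2 at chr16:38361940-38362189 (plus strand).
Gja1: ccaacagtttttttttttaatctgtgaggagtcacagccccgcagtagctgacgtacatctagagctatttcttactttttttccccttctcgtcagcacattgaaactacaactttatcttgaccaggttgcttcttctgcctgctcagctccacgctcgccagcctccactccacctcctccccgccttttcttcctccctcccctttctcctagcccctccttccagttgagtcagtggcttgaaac
Gpr37: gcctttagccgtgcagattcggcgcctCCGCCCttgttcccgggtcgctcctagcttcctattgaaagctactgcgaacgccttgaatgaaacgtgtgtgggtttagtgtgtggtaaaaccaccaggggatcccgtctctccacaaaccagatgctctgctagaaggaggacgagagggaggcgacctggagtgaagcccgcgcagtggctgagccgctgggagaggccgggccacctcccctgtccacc
Scn10a: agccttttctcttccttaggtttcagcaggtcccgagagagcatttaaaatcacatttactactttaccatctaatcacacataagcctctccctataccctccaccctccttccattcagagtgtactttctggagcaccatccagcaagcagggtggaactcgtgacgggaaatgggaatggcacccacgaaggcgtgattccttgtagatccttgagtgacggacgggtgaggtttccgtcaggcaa
Popdc2: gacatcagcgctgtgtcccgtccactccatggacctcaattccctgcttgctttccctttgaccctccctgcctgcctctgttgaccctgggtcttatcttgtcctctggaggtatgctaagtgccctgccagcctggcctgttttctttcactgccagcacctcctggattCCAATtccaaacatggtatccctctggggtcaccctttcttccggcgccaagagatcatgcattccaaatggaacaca

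Each stretch was searched on both strands for ACANNTGT, a palindrome of the kind Iroquois proteins are known to bind, and for 3 common promoter elements, namely TATAAA (the TATA box), CCAAT (the binding element of NF-Y) and GGGCGG (the GC box of Sp1). Popdc2 held CCAAT 78 bases before the start and Gpr37 held GGGCGG, read on the other strand, 223 bases before it. No match was found for Gja1 or Scn10a. Of the 48 called genes, 34 had a promoter in the table, with 42 starts among them. ACANNTGT was found for 0 of these 34 genes and in 3.8% of 15464 promoters of tested genes. CCAAT was found for 13 genes (34.7% of promoters), GGGCGG for 13 (53.4%) and TATAAA for 2 (7.14%). Genes with several starts count once if any start matched, so these shares are not on the same footing.

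**Figure D2:**
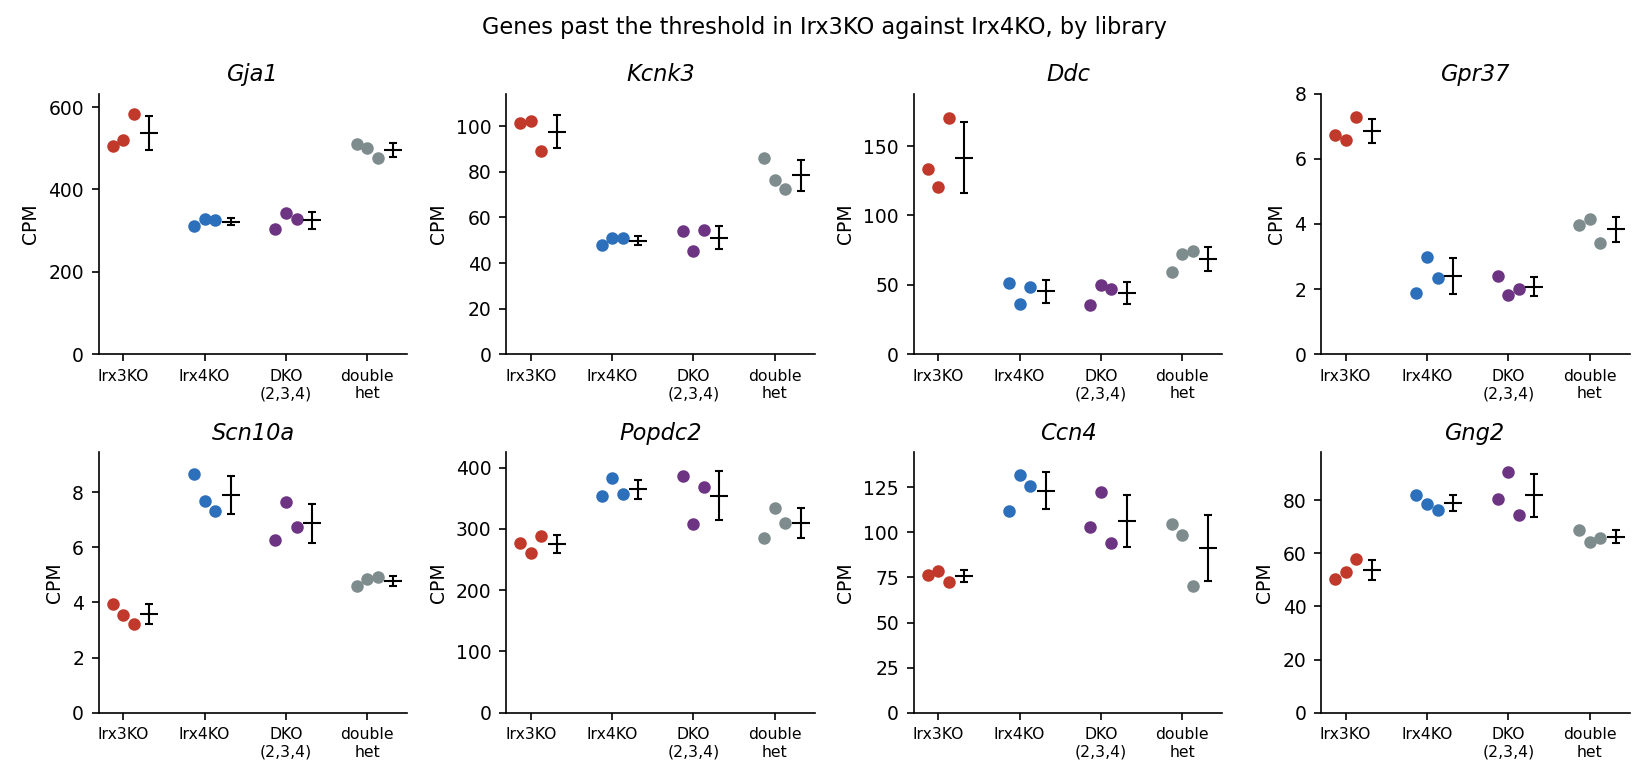
Levels in CPM (vertical axes, from 0) of 8 called genes in each library of Irx3KO, Irx4KO, DKO (replicates 2, 3 and 4) and double heterozygotes; black marks the mean ± SD of 3 libraries. Gja1, Kcnk3, Ddc and Gpr37 are higher and Scn10a, Popdc2, Ccn4 and Gng2 lower in Irx3KO, with no overlap between Irx3KO and Irx4KO.

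Genes of neurons and neural crest gave 2 rises and 0 falls among 14 tested (0.289% called over all genes), with a median log2 fold change of 0.19. Of the 14, 8 had a log2 fold change above 0 and 4 an unadjusted p under 0.05 (8.62% over all genes). DESeq2 called 2 and limma-voom 4. Ddc encodes aromatic L-amino acid decarboxylase, which makes dopamine and serotonin. It stood at 134, 121 and 170 CPM in Irx3KO and at 51.4, 36.1 and 48.7 CPM in Irx4KO. The lowest Irx3KO library was above the highest Irx4KO library, and the log2 fold change was 1.64 ± 0.26 (adjusted p = 0.015). DKO averaged 44.1 ± 7.66 CPM and the double heterozygotes 68.6 ± 8.30 CPM. The call was lost without Irx3KO 4 and without any one of the Irx4KO libraries (adjusted p from 0.058 to 0.12).

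Gpr37, which encodes an orphan G protein-coupled receptor best known from oligodendrocytes and neurons, stood at 6.72, 6.56 and 7.28 CPM in Irx3KO. In Irx4KO it stood at 1.89, 2.99 and 2.36 CPM. The log2 fold change was 1.51 ± 0.23 (adjusted p = 0.0066, and 0.056 without Irx4KO 2). The list summed to between 226 and 302 CPM in Irx3KO and between 135 and 146 CPM in Irx4KO, of which Ddc held 142 CPM in Irx3KO and 45.4 CPM in Irx4KO on average. The neuronal genes Th (0.21 CPM in Irx3KO and 0.17 CPM in Irx4KO) and Stmn2 (2.37 CPM in Irx3KO and 3.13 CPM in Irx4KO) were not called.

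The other named rises in Irx3KO came from genes of several roles. Gtsf1, known for its part in the piRNA pathway of the germ line, stood at 7.53, 11 and 6.85 CPM in Irx3KO and at 2.16, 2.74 and 3.20 CPM in Irx4KO. Its log2 fold change was 1.65 ± 0.24 (adjusted p = 0.0058, and 0.052 without Irx4KO 2). Megf10, an engulfment receptor, rose by 0.96 on the log2 scale, Adgrv1, a very large adhesion G protein-coupled receptor, by 0.83, and Klhl18, a Kelch protein of ubiquitin ligases, by 0.81. Fam69b (0.69) and Kalrn, a guanine nucleotide exchange factor (0.60), completed, with Gja1, Kcnk3, Ddc, Gpr37, Cacna1a and Bbs2, the 12 largest rises among called genes with at least 5 CPM on average in either group and no overlap, gene models left out. The adjusted p-values of the 5 genes given only by their fold changes ran from 0.011 for Klhl18 to 0.047 for Fam69b, and each of these calls was lost without at least 4 of the 6 libraries.

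Among the falls, the calls of Pirt, Gng2 and Grb14 held without each of the 6 libraries in turn. Pirt, a phosphoinositide-binding regulator of TRP channels in sensory neurons, stood at 24.4, 24.8 and 25.2 CPM in Irx3KO and at 36.5, 34.7 and 37.7 CPM in Irx4KO. Its log2 fold change was -0.55 ± 0.07 (adjusted p = 0.00085). Gng2, a G protein gamma subunit, stood at 50.4, 52.9 and 57.8 CPM in Irx3KO and at 82.0, 78.7 and 76.1 CPM in Irx4KO. In neither gene did the groups overlap, and the Gng2 log2 fold change was -0.56 ± 0.08 (adjusted p = 0.0058, and 0.30 with counts rebuilt from TPM). Grb14, an adaptor that inhibits the insulin receptor, stood at 40.6, 40.8 and 41.9 CPM in Irx3KO and at 55.4, 59.2 and 59.4 CPM in Irx4KO, with a log2 fold change of -0.50 ± 0.06 (adjusted p = 0.0019).

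Ccn4, a secreted matricellular protein induced by Wnt signalling, stood at 76.5, 78.3 and 72.3 CPM in Irx3KO and at 112, 131 and 126 CPM in Irx4KO. The log2 fold change was -0.70 ± 0.13 (adjusted p = 0.036), and the call was lost without each of the 6 libraries in turn (adjusted p from 0.065 to 0.17). Elovl7, a fatty acid elongase, stood at 4.55, 4.23 and 5.25 CPM in Irx3KO and at 10.4, 17.0 and 10.6 CPM in Irx4KO, with a log2 fold change of -1.44 ± 0.24 (adjusted p = 0.011). The groups of both genes were apart, and the Elovl7 call was lost without Irx3KO 1, Irx3KO 2 or Irx4KO 3 (0.074 to 0.095). Abca6, an ABC transporter, fell by 1.70 on the log2 scale, Sel1l3 by 0.79, Itgb1bp2 (melusin, a muscle chaperone that binds integrin) by 0.53 and Dapp1, an adaptor that binds phosphoinositides, by 0.48. Their adjusted p-values ran from 0.012 to 0.046, and each call was lost without at least 4 of the 6 libraries. Dcpp2 had the largest fall after Irx3 among the named genes (-2.24 ± 0.40, adjusted p = 0.021), but it belongs to a family of near-identical copies among which reads can be split, so its value is uncertain.

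**Figure D3:**
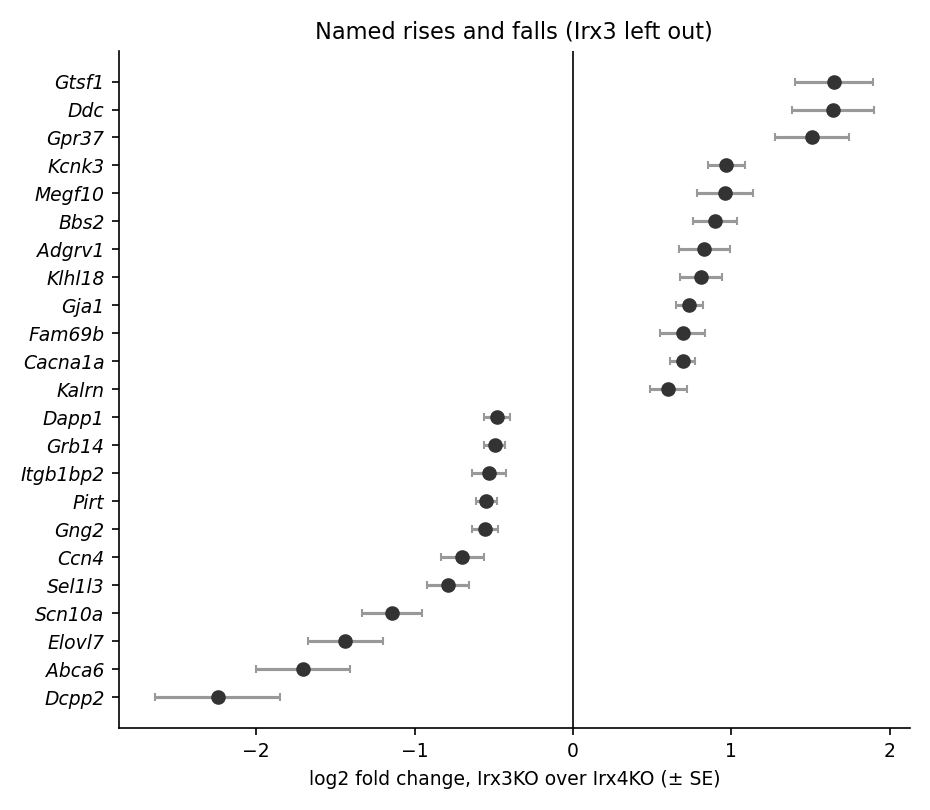
Log2 fold change of Irx3KO over Irx4KO (horizontal axis, ± SE) for the 12 largest rises and 11 largest falls among called genes with at least 5 CPM on average in Irx3KO or Irx4KO and no overlap, gene models and Irx3 left out. Rises run up to 1.65 for Gtsf1 and falls down to -2.24 for Dcpp2.

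Other called genes are named here after their values were seen. Atp2b3, an X-linked gene for a plasma membrane calcium pump best known from brain, had 46, 62 and 35 counts in the Irx3KO libraries and 0 counts in all 3 Irx4KO libraries. Against a floor of 3 counts per library it was at least 14.8-fold higher in Irx3KO. DKO had 0, 9 and 0 counts and the double heterozygotes 27, 26 and 13. Mylk3, the kinase of cardiac myosin light chain, stood at 281, 280 and 298 CPM in Irx3KO and at 357, 379 and 375 CPM in Irx4KO, with a log2 fold change of -0.37 ± 0.07 (adjusted p = 0.027). The groups did not overlap, and this call was lost without each of the 6 libraries in turn (0.067 to 0.17). Further rises included Trpc5, Cntnap2, Il1rap, Trib2, Nup210 and Tsc22d3, and further falls Cap2, Mical2, Hif3a, Lgals1 and the retinoic acid hydroxylase Cyp26a1, with log2 fold changes between -1.69 (Cyp26a1) and 1.96 (Trpc5).

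Among genes that mark the parts of the chamber, Gja1 and Irx3 were called by edgeR. In the trabecular and Purkinje list 0 of 24 genes were higher and 1 was lower, Irx3 itself, with a median log2 fold change of -0.01. In this list 11 genes had an unadjusted p under 0.05 (8.62% over all genes). DESeq2 called 5 and limma-voom 9, and the fit of the 6 libraries called 2 higher and 4 lower. Of the 24 members, 11 had a log2 fold change above 0 (8192 of 16607 over all genes). The rises detailed next therefore do not stand for the list. Cited1, a transcriptional coregulator of trabecular myocardium, stood at 137, 136 and 120 CPM in Irx3KO and at 77.3, 72.3 and 74.8 CPM in Irx4KO. The groups did not overlap, but the log2 fold change of 0.81 ± 0.16 had an adjusted p of 0.052 (0.00013 in the fit of the 6 libraries), and Cited1 is named after its values were seen. Bmp10, a growth factor of trabeculation, averaged 47.6 CPM in Irx3KO and 25.5 CPM in Irx4KO (adjusted p = 0.16, and 0.0048 in the fit of the 6 libraries). Nppa averaged 797 CPM in Irx3KO and 840 CPM in Irx4KO (adjusted p = 0.99). In the ventricular list 1 of 11 genes was higher, Gja1, and 0 were lower, while DESeq2 and limma-voom called 3 each and 4 had an unadjusted p under 0.05.

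None of 9 compact wall genes, 14 atrial genes, 24 cardiac transcription factors, 20 Notch pathway genes or 29 growth factor genes passed the test in edgeR. At an unadjusted p under 0.05 there were 2, 3, 5, 3 and 7 of them in that order of lists, DESeq2 called 1, 2, 2, 0 and 2, and limma-voom 1, 2, 5, 0 and 4. The nearest to it in the compact wall list was the Wnt receptor Fzd1, which averaged 67.5 CPM in Irx3KO and 87.6 CPM in Irx4KO (log2 fold change -0.38 ± 0.08, adjusted p = 0.063), and in the growth factor list Bmp7 (0.34 ± 0.08, adjusted p = 0.064). The other 4 Iroquois genes tested, Irx1, Irx2, Irx5 and Irx6, were not called by edgeR, though 3 had an unadjusted p under 0.05, DESeq2 called 1 and limma-voom 2. Irx2 averaged 27.8 CPM in Irx3KO and 18.5 CPM in Irx4KO (adjusted p = 0.16), while Irx5, the neighbour of Irx3, averaged 17.3 CPM in Irx3KO and 18.9 CPM in Irx4KO (adjusted p = 0.88).

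None of 36 sarcomere genes passed the test in edgeR, with a median log2 fold change of -0.10 (8 at an unadjusted p under 0.05, 4 called by DESeq2 and 6 by limma-voom). Of these 36 genes, 8 had a log2 fold change above 0 (8192 of 16607 over all genes). Among major genes of the contractile apparatus, Myh7 (0.06), Actc1 (0.01) and Mybpc3 (-0.02) had log2 fold changes near 0. Myl2 stood at -0.10 and Tnnt2 at -0.20, and neither was called. The skeletal-type troponin Tnni2 stood at 12.3, 11.4 and 7.68 CPM in Irx3KO and at 29.7, 29.6 and 40.7 CPM in Irx4KO (log2 fold change -1.67 ± 0.36, adjusted p = 0.077), with no overlap. The fit of the 6 libraries called 0 sarcomere genes higher and 4 lower, Acta1, Tnni2, Nebl and Myl7. Of 9 markers of skeletal muscle edgeR called 0, DESeq2 1 and limma-voom 1, with 3 at an unadjusted p under 0.05 and 1 called lower in the fit of the 6 libraries. These markers summed to between 182 and 332 CPM in Irx3KO and between 377 and 471 CPM in Irx4KO, mostly from Ckm, which heart muscle also expresses, while the skeletal regulator Myog averaged 0.623 CPM in Irx3KO and 0.873 CPM in Irx4KO. Their part in the Tnni2 difference was not tested.

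In the remaining lists of muscle metabolism and growth, 0 of 27 cell cycle genes, 0 of 29 genes of fatty acid use and respiration and 0 of 21 genes of glycolysis and hypoxia were called by edgeR. At an unadjusted p under 0.05 there were 1, 1 and 4 in that order, DESeq2 called 0 in each list, and limma-voom 1, 0 and 2. The glycolysis list had a median log2 fold change of 0.14, and the fit of the 6 libraries called 5 of its members higher and 0 lower, Pkm, Eno1, Pfkl, Hk1 and Slc2a1. Of 18 immediate early and heat shock genes 0 were called by edgeR, DESeq2 or limma-voom (3 at an unadjusted p under 0.05), and of 4 Y-linked genes 0 by any of the 3 tools (0 at an unadjusted p under 0.05). Pkm, a pyruvate kinase, averaged 1683 CPM in Irx3KO and 1453 CPM in Irx4KO (adjusted p = 0.35).

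**Figure D4:**
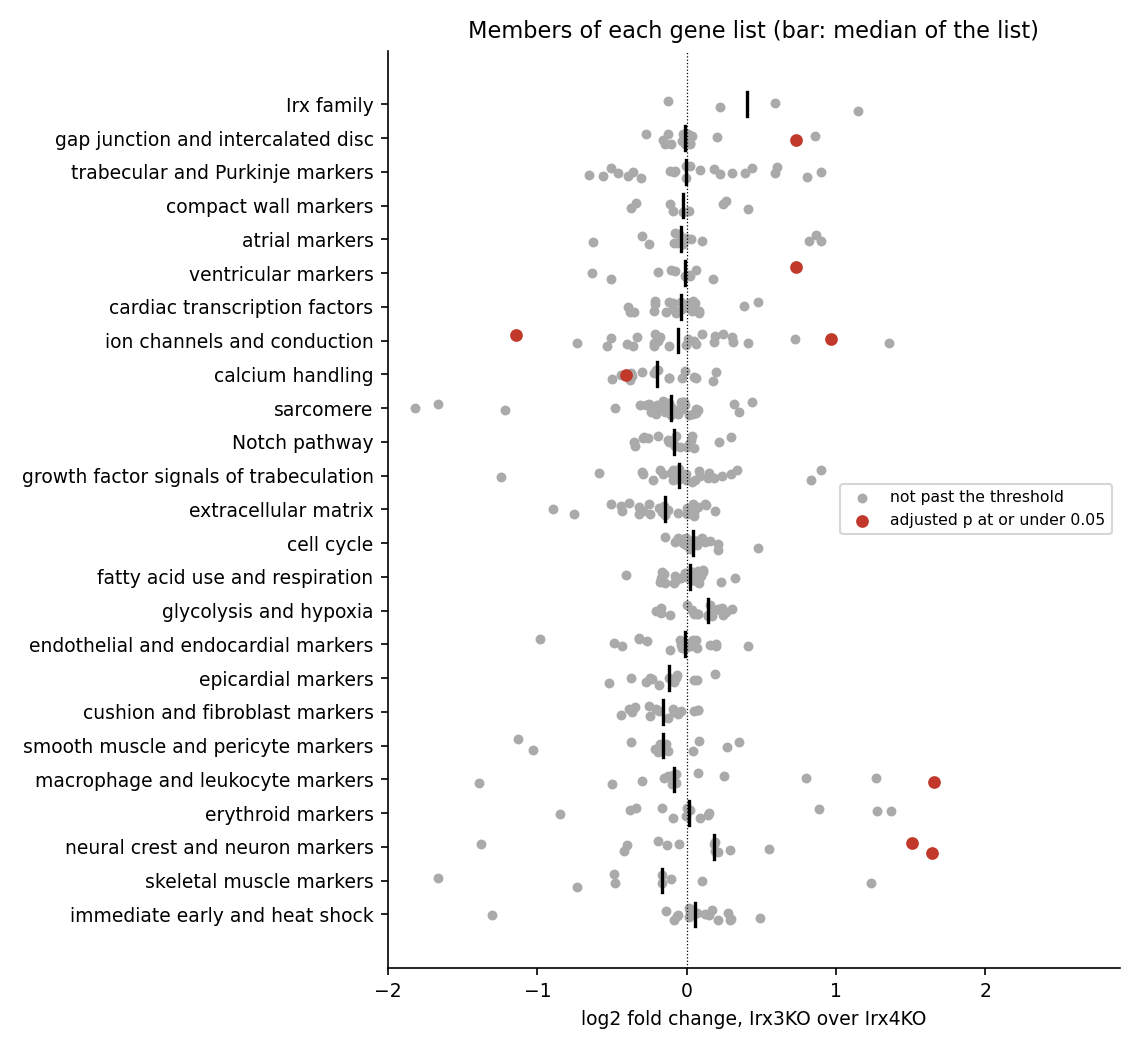
Log2 fold change of Irx3KO over Irx4KO (horizontal axis) of the tested members of each gene list but the Y-linked one (vertical axis), with no dot for Irx3. Bars mark list medians, which for the trabecular and Purkinje list include Irx3. Large dots mark the genes past an adjusted p of 0.05. Called genes are Gja1, Kcnk3, Scn10a, Popdc2, Ddc, Gpr37 and Lyz1, and list medians other than that of the Irx family lie between -0.20 and 0.19.

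Markers of other cell types of the ventricle wall gave 1 call. None of 21 endothelial and endocardial, 13 epicardial, 16 cushion and fibroblast, 12 smooth muscle and pericyte or 14 erythroid markers passed the test in edgeR. At an unadjusted p under 0.05 there were 2, 3, 5, 0 and 2 in that order of lists, DESeq2 called 0 in each, and limma-voom 0, 0, 4, 0 and 1. Cushion and fibroblast markers summed to between 4590 and 4701 CPM in Irx3KO and between 5164 and 5950 CPM in Irx4KO, with a median log2 fold change of -0.16. The fit of the 6 libraries called 0 of these higher and 5 lower, Postn, Col3a1, Ddr2, Sox9 and Lum, and of 28 extracellular matrix genes 0 higher and 5 lower, with Postn, Col3a1 and Lum on both lists. In the fit of all 18 libraries 0 of the 28 matrix genes were called (6 at an unadjusted p under 0.05, 1 called by DESeq2 and 4 by limma-voom). The fall of Ccn4, a matricellular gene, stands beside these sums, and the part of fibroblast content in it was not tested.

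Among macrophage markers 1 of 14 was higher and 0 lower. At an unadjusted p under 0.05 there were 2 (8.62% over all genes), and DESeq2 and limma-voom called 2 each. Lyz1, a lysozyme gene, stood at 4.03, 4.28 and 4.04 CPM in Irx3KO and at 1.71, 1.03 and 1.16 CPM in Irx4KO, with a log2 fold change of 1.65 ± 0.25 (adjusted p = 0.0066, and 0.059 without Irx4KO 3). Its near-identical copy Lyz2 stood at 24.8, 27.1 and 23.0 CPM in Irx3KO and at 10.2, 11.9 and 9.02 CPM in Irx4KO (adjusted p = 0.11, and 0.00050 in the fit of the 6 libraries). Both genes were higher in every Irx3KO library, but reads can be split between the copies, so the Lyz1 value is uncertain. The macrophage list as a whole summed to between 119 and 138 CPM in Irx3KO and between 110 and 129 CPM in Irx4KO, and the receptor Csf1r averaged 24.8 CPM in Irx3KO and 26 CPM in Irx4KO.

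The called genes were then followed in the DKO and the double heterozygotes, which share no library with the comparison of the 2 single knockouts. Of the 24 genes higher in Irx3KO, 20 were lower in DKO than in the double heterozygotes (83.3%, against 48.8% of all genes tested), with a median log2 fold change of -0.35. Of the 24 genes lower in Irx3KO, 17 were higher in DKO than in the double heterozygotes (70.8%, against 51.1% of all genes), with a median of 0.16. The 2 groups differed in how levels followed transcript length. Spearman rho was 0.065, 0.274 and 0.164 in DKO 2, 3 and 4 and 0.516, 0.289 and 0.392 in double heterozygotes 2, 3 and 4. With this trend removed, DKO had 10 calls higher and 5 lower, against 6 and 9. Its part in the shares above was not tested. In single genes the comparison of DKO with double heterozygotes called 15 of 16607 (0.0903%), and 5 of the 48 genes were among them. These 5 include Irx3, which is targeted in both Irx3KO and DKO per the labels, so its call follows from the genotypes. Gja1 (-0.61), Trib2, a pseudokinase (-0.57 ± 0.09, adjusted p = 0.012), and the nuclear pore gene Nup210 (-0.41 ± 0.07, adjusted p = 0.030) were lower in DKO and higher in Irx3KO.

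Hif3a, an inhibitor of hypoxia signalling, had another pattern. It averaged 177 ± 9.44 CPM in Irx3KO and 228 ± 13.2 CPM in Irx4KO (log2 fold change -0.37 ± 0.07, adjusted p = 0.031), 172 ± 13.7 CPM in DKO and 225 ± 14.3 CPM in the double heterozygotes. DKO was thus at the Irx3KO level, and the log2 fold change of DKO over double heterozygotes was -0.39 ± 0.07 (adjusted p = 0.049). The DKO mean lay nearer to the Irx4KO mean for 19 of the 24 genes higher in Irx3KO and for 16 of the 24 lower, and over all genes tested for 8580 of 16607. For all 48 genes the double heterozygous mean lay between the means of the 2 single knockouts, as for 38.2% of all genes tested. These shares cannot be compared, since the 48 genes were chosen for a wide gap between those 2 means.

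**Figure D5:**
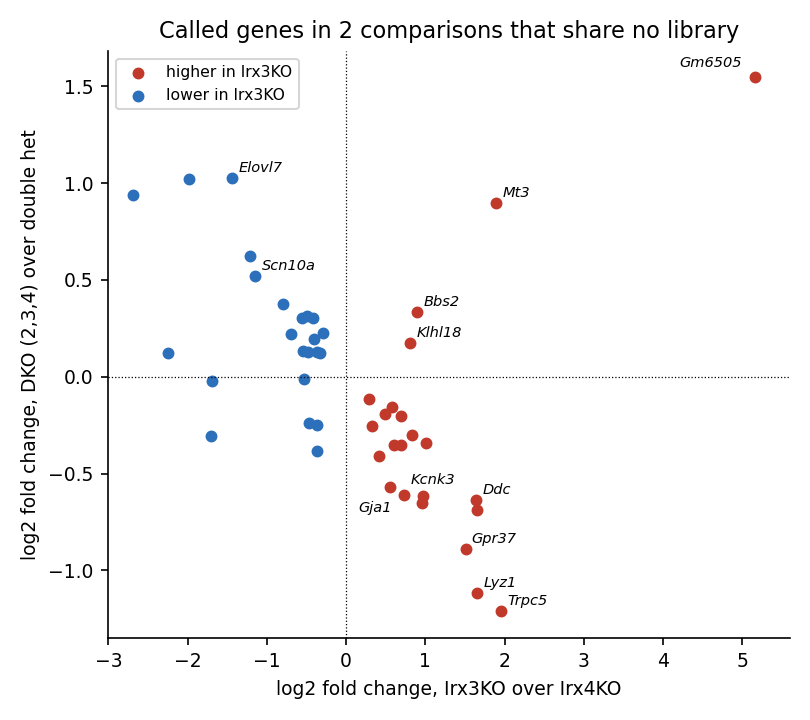
Log2 fold change of DKO (replicates 2, 3 and 4) over double heterozygotes (vertical axis) against that of Irx3KO over Irx4KO (horizontal axis) for 46 called genes, with Irx3 and Atp2b3 left out. Most genes higher in Irx3KO, Gja1 (-0.61) and Gpr37 (-0.89) among them, lie below 0 on the vertical axis, while Bbs2, Klhl18, Mt3 and Gm6505 lie above it.

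Compared with the double heterozygotes, few genes were called by edgeR in either single knockout. DESeq2 called 12 genes for Irx3KO and 32 for Irx4KO, so the edgeR counts given next do not mean that other genes were unchanged. Irx3KO differed in 1 gene (0.00602%), Irx3 itself (log2 fold change -2.21, adjusted p = 7.1e-08). Irx4KO differed in 2 genes (0.012%), Irx3, which was higher, and Gja1, which was lower. The other 46 of the 48 genes were called in neither.

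Genes close to Irx3 on chromosome 8 were examined separately. Of the 40 tested genes nearest to Irx3 in gene order, 2 were called by edgeR (5.0%), Bbs2 and Mt3, which are the 15th and 16th genes on one side. Among the same 40 genes 11 had an unadjusted p under 0.05 (8.62% over all genes). DESeq2 called 4 and limma-voom 7, and the fit of the 6 libraries called 6 of 39 (3.41% over all genes). Bbs2, a subunit of the BBSome of cilia, stood at 15.2, 15.8 and 15.3 CPM in Irx3KO and at 7.77, 7.70 and 9.39 CPM in Irx4KO (log2 fold change 0.90 ± 0.14, adjusted p = 0.0066). Mt3, a metallothionein, stood at 3.84, 4.05 and 4.8 CPM in Irx3KO and at 0.780, 0.726 and 1.92 CPM in Irx4KO (1.90 ± 0.37, adjusted p = 0.038). In neither gene did the groups overlap, and the DKO means, 15.6 CPM for Bbs2 and 5.81 CPM for Mt3, were at or above those of Irx3KO. The Bbs2 call was lost without Irx4KO 2 or 3 (0.056 and 0.059) and the Mt3 call without every library but Irx4KO 4 (0.12 to 0.19).

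The next metallothionein gene, Mt2, went the other way and is named after its values were seen. It stood at 2.61, 1.92 and 1.72 CPM in Irx3KO and at 9.76, 9.35 and 8.90 CPM in Irx4KO, with a log2 fold change of -2.16 ± 0.46 (adjusted p = 0.070, and 0.00023 in the fit of the 6 libraries). DKO averaged 2.00 ± 0.17 CPM and the double heterozygotes 5.11 ± 2.21 CPM. Of the 40 genes nearest to Irx4 on chromosome 13, 0 were called by edgeR (9 at an unadjusted p under 0.05), against 1 by DESeq2 and 3 by limma-voom, and in the fit of the 6 libraries 1 of 39 was called, Mrpl36. Over whole chromosomes, 5 of 878 genes of chromosome 8 other than Irx3 (0.569%), 6 of 600 genes of chromosome 13 (1.0%) and 36 of 15128 genes elsewhere (0.238%) were called. In the fit of the 6 libraries these shares were 4.05% for chromosome 8, 6.17% for chromosome 13 and 3.26% elsewhere. In both fits the share was highest for chromosome 13. The loss of a targeted gene and sequence that travels with its altered allele cannot be told apart in this design.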

How the data were processed

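PolyA RNA of mouse ventricles was sequenced in 18 libraries, made with a directional kit from RNA with an integrity number above 8.5, per the labels' protocols. The authors deposited a table per library with estimated counts and TPM (a transcript's share of the library, scaled for length) per transcript, per the file headers, together with each transcript's length. Kallisto 0.42.2 and the mm9 genome are named, per the submitters' processing notes. No source used here gives the transcript release or whether strand was used in counting, so genes with antisense partners or near-identical copies are uncertain. Of 88943 transcripts, 78030 (87.73%) were tied to a gene by identifier in GENCODE M21, a GRCm38 annotation used for names and gene order only. The rest held 6.451% to 6.633% of the counts of the 6 libraries and were left out. Estimated counts were summed over 28563 genes and rounded to whole numbers.

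Genes were tested with edgeR 4.0.16 (R 4.3.3) by the robust quasi-likelihood F test, with TMM factors and filterByExpr, in 1 fit of 18 libraries with a mean for each genotype and library set (Irx3KO, Irx4KO, double heterozygote, DKO of set 2, DKO of set 1, wild type). The sets (6 and 12 libraries) are not named by the labels. The threshold was a Benjamini-Hochberg adjusted p of 0.05 over all 16607 genes. Fold changes are Irx3KO over Irx4KO with a prior count of 0.125, the SE is the log2 fold change over the square root of F, and levels are CPM with TMM factors. The fit was tested on simulated data, with changes placed only in genes of higher mean counts. It recovered 40 of 67 genes changed 1.5-fold (59.7%), 61 of 67 changed 2-fold and 63 of 66 changed 4-fold, with 8 false calls. A list with no calls can therefore still hold changes of small size. DESeq2 1.42.0 and limma 3.58.1 (voom) were alternatives, and TPM was used only to rebuild counts. Replicate numbers did not pair the libraries (r = 0.021 for number 2 and -0.015 for number 4). Within Irx3KO, Irx4KO and the double heterozygotes, every pair from one group differed by more than sampling noise.

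Named genes are Irx3 and Irx4; up to 12 called rises and 12 falls with at least 5 CPM in a group and no overlap; from 26 gene lists up to 4 called members, or the 1 or 2 with the smallest p; and called genes among the 20 on each side of Irx3 and Irx4. Gene models and Y-linked genes were passed over. Some genes this rule allows are given only in counts. Of 431 distinct list names, 2 had no match. The comparison, the lists and the rule were chosen with earlier results of these data known. Promoters are from RefSeq (GRCm38.p6), matched by symbol.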

Additional observations from a re-analysis of the deposited data

How the results depend on the processing

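The number of calls depended on the setting. Of the 48 genes called between Irx3KO and Irx4KO, 0 changed sign under any alternative tried. This does not test direction, since every alternative reuses libraries in which the groups did not overlap for any of the 48 genes. The number called was 541 with only the 6 libraries, 193 with the 9 libraries of Irx3KO, Irx4KO and double heterozygotes, 145 with the 12 libraries of set 2 (chosen after seeing the data), 23 with genotype alone and no set term, 214 with DESeq2, 738 with limma-voom and 12 to 24 with 1 library left out. RLE size factors, filters on low counts, counts rebuilt from TPM, removal of a length trend and transcripts kept without a gene gave 33 to 64. DESeq2 called 46 of the 48, limma-voom 48, the 6-library fit 47, counts rebuilt from TPM 34 and the fit with genotype alone 23.

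The replicate numbers did not pair the libraries. With the replicate block in the 12 libraries of set 2 there were 14 calls between Irx3KO and Irx4KO, 10 of them among the 48, 2 for Irx3KO against double heterozygotes, 2 for Irx4KO and 34 for DKO.

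For Irx3KO against double heterozygotes the count of 1 became 12 with DESeq2, 2 with limma-voom, 4 with only the groups compared, 3 with 9 libraries, 2 with the 12 libraries of set 2, and 1 to 2 with 1 library left out. For Irx4KO the count of 2 became 32, 4, 11, 13 and 12 in the same order of settings, 1 with genotype alone, and 0 to 6 with 1 library left out. For DKO the count of 15 became 183 with DESeq2, 29 with limma-voom, 317 with genotype alone, 173 with the 12 libraries of set 2, and 4 to 17 with 1 library left out. The cause was not tested, other than that the common dispersion was lower in the 6 libraries (0.00929) than in all 18 (0.0207).

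The Irx4 difference (log2 fold change -0.64, adjusted p = 0.063) passed the threshold with DESeq2 (-0.63, adjusted p = 0.000952), limma-voom (-0.67, 0.0023), only the 6 libraries (-0.63, 0.0014), 9 libraries (-0.63, 0.000993), the 12 libraries of set 2 (-0.63, 0.000249) and the replicate block (-0.59, 0.025). The Irx3 difference passed in every alternative. The Y-linked gene Eif2s3y turned to a log2 fold change of 0.11 under the replicate block (adjusted p = 0.996). Among single named genes, 966 values kept their side of the threshold, 60 passed only in the alternative, 132 passed only in the fit reported and 1 reversed.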

Other observations

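Gm6505, a gene model on chromosome 3 with no descriptive symbol, was among the 48 called genes. It stood at 8.93, 9.41 and 8.44 CPM in the Irx3KO libraries and at 0.151, 0.391 and 0.204 CPM in the Irx4KO libraries (adjusted p = 0.035 by edgeR's quasi-likelihood test). In the DKO libraries it stood at 0.192, 4.57 and 0.253 CPM, and in the double heterozygotes at 0.532, 0.489 and 0.721 CPM. The level was thus high in all 3 Irx3KO libraries and in 1 DKO library, and low in the other libraries of these groups.

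Embryonic globin genes did not pass the test between Irx3KO and Irx4KO. Hbb-y, an embryonic beta globin, stood at 1190.4, 1455 and 824 CPM in Irx3KO and at 466, 579 and 391 CPM in Irx4KO (adjusted p = 0.44, and 0.13 in a fit of the 6 libraries alone). The groups did not overlap. Hbb-bh1, another embryonic beta globin, stood at 16.6, 16.7 and 12.7 CPM in Irx3KO and at 5.78, 5.81 and 6.22 CPM in Irx4KO (adjusted p = 0.44, and 0.00051 in a fit of the 6 libraries alone).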
